A study of Mus musculus with 6 samples.

Results

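Macrophages take up modified lipoproteins, microbes, dying cells and debris through scavenger receptors, a group of structurally diverse surface proteins that share broad ligand binding. Described here are 10 genes of this group, picked by name out of 16138 in the authors' deposited table: Marco, Msr1 and Colec12 of class A, Cd36, Scarb1 and Scarb2 of class B, Olr1 of class E, Stab1 of class H, Cd163 of class I, and Cd5l, which encodes a secreted relative with the same cysteine-rich domain. The genes were chosen from the results of this very comparison, in which Marco stands among the most strongly raised transcripts, so their log2 fold changes and q-values are given as a description and test nothing. All 10 were found by gene symbol.

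Cells were mouse bone marrow-derived macrophages, grown from marrow for 7 days in 50 ng/ml M-CSF, the growth factor that drives macrophage differentiation. Both groups carried loxP-flanked (fl/fl) alleles of Morrbid, a long non-coding RNA of myeloid cells. Control cells had the genotype Morrbidfl/fl (3 samples) and knockout cells, called cKO here, Morrbidfl/fl/Lyz2-Cre (3 samples), in which Cre recombinase is made from the lysozyme locus active in myeloid cells. No Cre-bearing group without the flanked allele is among the samples, so Cre, its insertion into Lyz2 and the loss of Morrbid cannot be told apart. The comparison addresses which macrophage transcripts differ between these genotypes, in a study of aortic aneurysm and vascular inflammation.

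The file gives 1 ratio, 1 p-value and 1 q-value per gene, with "WT" in its header taken to be the control group. Expression levels and values of single libraries were not analysed here, and sequencing depth is unknown. Nothing in the labels ties the samples to separate animals or gives the age of the mice, so p-values measure only how far these 6 samples scatter, and that scatter may be technical. As a measure of precision, a standard error was derived from each ratio and its two-sided p-value, which assumes a Wald-type test, and intervals are 95% intervals built from it. Among 10 macrophage markers, Lyz2 fell (-0.85, q = 4.6e-06) and Adgre1 rose (0.44, q = 0.0104) per the authors' deposited table. Lyz2 carries the Cre insertion in cKO cells alone, so an effect of that insertion on Lyz2 and a change of the marker cannot be told apart. The other 8 markers, Csf1r, Cd68 and Mertk among them, had q of 0.05 or more. Of all genes, 1.72% had q under 0.05. Marker levels, and Morrbid itself, were not analysed here, so neither the cell type nor the deletion was checked.

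Scavenger receptors were first known for the uptake of acetylated and oxidised low-density lipoprotein, which turns macrophages into foam cells in the arterial wall. Class A members are trimers with a collagenous stalk, class B members are hairpin proteins with a large loop outside the cell, or inside the lysosome, and several members carry the scavenger receptor cysteine-rich (SRCR) domain. In macrophages the genes respond to different regulators: Cd36 is a textbook target of the nuclear receptor PPAR gamma, and Cd5l of the liver X receptors.

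In cKO macrophages, 2 of the 10 genes rose and 1 fell at a q under 0.05, and 7 did not pass. Marco, a class A receptor for bacteria and inhaled or circulating particles, rose 4.70-fold, and Cd5l, a secreted macrophage protein also known as AIM, rose 1.70-fold. Scarb2, the lysosomal membrane protein LIMP-2, fell to 0.771 times control. Across all genes of the authors' deposited table, 1.72% passed that threshold, with 0.849% higher and 0.874% lower in cKO. Because the genes were picked with these values known, nothing is read from their count against that share. The median log2 fold change of the 10 genes was -0.11, with 4 above 0 and 6 below, against -0.01 for all genes.

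The DNA just before the transcription start of the 3 genes that passed is shown because these are the members that moved. RefSeq promoter sequences of assembly GRCm38.p6 were held for 7 of the 10 genes. The submitters' processing notes name the build mm9, so these coordinates belong to GRCm38.p6 alone and to no value of the comparison. Each run is the 250 bases before the start, read 5′ to 3′ on the gene's strand. They lie at chr1:120505025-120505274 (minus strand) for Marco, chr3:87357631-87357880 (plus strand) for Cd5l and chr5:92505658-92505907 (minus strand) for Scarb2. Capitals mark matches, on either strand, to 1 of 7 short motifs.
Marco: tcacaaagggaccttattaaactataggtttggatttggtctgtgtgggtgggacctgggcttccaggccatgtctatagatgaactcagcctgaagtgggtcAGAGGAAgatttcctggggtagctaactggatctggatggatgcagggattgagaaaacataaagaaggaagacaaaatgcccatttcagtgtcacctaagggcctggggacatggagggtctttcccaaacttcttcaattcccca
Cd5l: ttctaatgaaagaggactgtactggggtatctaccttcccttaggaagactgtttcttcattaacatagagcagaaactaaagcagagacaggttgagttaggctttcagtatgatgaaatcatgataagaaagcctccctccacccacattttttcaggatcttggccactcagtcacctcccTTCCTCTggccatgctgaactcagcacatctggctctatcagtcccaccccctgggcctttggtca
Scarb2: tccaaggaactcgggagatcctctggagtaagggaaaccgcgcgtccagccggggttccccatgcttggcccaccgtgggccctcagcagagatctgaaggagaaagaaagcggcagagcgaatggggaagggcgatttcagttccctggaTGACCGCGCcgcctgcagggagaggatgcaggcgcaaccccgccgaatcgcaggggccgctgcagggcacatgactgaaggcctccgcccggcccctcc

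The 7 motifs are given with the share of 32851 promoter windows of the same length that hold each. They were the AP-1 motif TGANTCA (6.75%), the E-box CACGTG (6.02%), the motif TTGCNNAA of CEBP factors (9.56%) and the antioxidant element TGACNNNGC, bound by NRF2 (10.2%). Also searched were the nuclear receptor hexamer AGGTCA (14%), the ETS core AGAGGAA, bound by PU.1 among others (8.55%), and the core promoter element TATAAA (12.4%). In the Marco window AGAGGAA lay from 147 to 141 bases before the start, and in the Cd5l window its reverse complement lay from 66 to 60 bases before it. In the Scarb2 window the antioxidant element lay from 99 to 91 bases before the start, written TGACCGCGC there. The Scarb2 window was 65.6% G and C, against 47.6% for Marco and 46.8% for Cd5l. Among the other genes with a promoter, the nuclear receptor hexamer was matched in the Cd36 and Olr1 windows and the AP-1 motif in the Olr1 window, and no matches overlapped. Such matches describe letters in these windows and say nothing of binding.

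Marco had the most extreme log2 fold change of the group, and of the 10 genes Olr1 alone was measured less closely. The receptor (Gene ID 17167) recognises bacterial surfaces and unopsonised particles, and in mice is typical of marginal zone macrophages of the spleen and of alveolar macrophages. Its log2 fold change per the authors' deposited table was 2.23, with q = 0.0485. The implied standard error was 0.669, so the interval ran from 0.92 to 3.54, or from 1.90-fold to 11.7-fold. At that precision a log2 fold change of 2.23 was just enough to pass, the same as the observed value to 2 decimals. Of the 278 genes that passed, 1 had a larger q. Marco did not pass at q under 0.01 or after Holm adjustment of the deposited p-values (adjusted p = 1.00), whereas Cd5l and Scarb2 passed both. In all, 422 genes had a log2 fold change of at least this size in either direction, and 8 of them passed. The other genes were less precise for the most part: 22 of the 422 had an implied standard error of at most 1. Among genes that passed, those closest to Marco in log2 fold change, over this single comparison, were Slc13a3 (2.37) and Gm46221 (3.81) above it and Rab4a (2.22), Susd2 (2.16) and Xlr3b (2.01) below it, per the authors' deposited table. No other passing gene stood above it.

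Cd5l (Gene ID 11801), which binds lipids and microbial products and supports macrophage survival in mice, rose with far better precision. The authors' deposited table gave a log2 fold change of 0.77 and q = 0.000155, and the implied standard error of 0.152 put the interval at 0.47 to 1.06. Its interval and that of Marco overlapped, and whether the pair differs was not tested. Ranked by p-value, Cd5l stood at position 49 and Scarb2 at position 50 of 16138, whereas Marco stood at 277. By log2 fold change from the top, Marco stood at 147 and Cd5l at 1375.

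Scarb2 (Gene ID 12492) fell by a small amount that was measured more closely than that of any other member. Its log2 fold change per the authors' deposited table was -0.38 with q = 0.000155. With an implied standard error of 0.0746, the interval ran from -0.52 to -0.23, which is 0.696 to 0.853 times control. At this precision a change of 0.25 sufficed to pass.

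**Figure D1:**
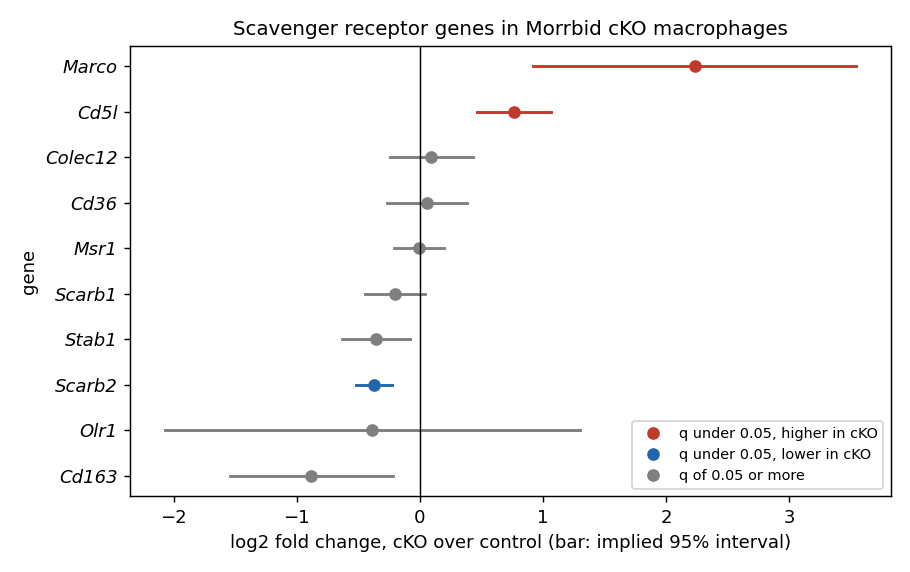
Log2 fold change of cKO over control for the 10 scavenger receptor genes (points), from the authors' deposited table, with the 95% interval implied by each ratio and p-value (bars); the vertical line marks no change. Marco (2.23) and Cd5l (0.77) lie to the right and Scarb2 (-0.38) to the left with q under 0.05, and the bars of Marco and Olr1 are the widest.

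Of the class A receptors beside Marco, Msr1 and Colec12 lay near 0. Msr1 (Gene ID 20288), the original macrophage scavenger receptor for acetylated lipoprotein, had a log2 ratio of -0.01 (q = 1.00) per the authors' deposited table. Its interval of -0.21 to 0.20 spans 0.864 to 1.15 times control. Colec12 (Gene ID 140792), a collectin-like receptor of endothelium and some stromal cells, stood at 0.09 with q = 0.993 per the authors' deposited table, with an interval of -0.25 to 0.43. The intervals of both genes lie wholly below that of Marco.

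The other class B receptors did not pass. Cd36 (Gene ID 12491), which takes up oxidised lipoprotein and long-chain fatty acids and binds thrombospondin, stood at 0.06 (q = 0.993) per the authors' deposited table, with an interval of -0.27 to 0.38. The deposited table lists 15 transcripts for Cd36 and 1 for Marco and for Cd5l. Scarb1 (Gene ID 20778), the receptor for high-density lipoprotein, stood at -0.20 (q = 0.751) per the authors' deposited table, with an interval of -0.45 to 0.04. Within class B, the interval of Scarb2 overlapped that of Scarb1, and lay wholly below 0 only for Scarb2.

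Cd163, Stab1 and Olr1, of classes I, H and E, lay below 0 without passing. Cd163 (Gene ID 93671), the receptor that clears haemoglobin bound to haptoglobin, had the lowest ratio of the 10, -0.88 on the log2 scale (q = 0.228) per the authors' deposited table. Its interval ran from -1.54 to -0.22 (0.343 to 0.858 times control), and at its implied standard error of 0.338 a change of 1.13 was needed to pass. Stab1 (Gene ID 192187), an endocytic receptor of macrophages and sinusoidal endothelium that clears SPARC and modified lipoprotein, stood at -0.36 with q = 0.274 per the authors' deposited table and an interval of -0.64 to -0.08. Without adjustment, p was 0.00901 for Cd163 and 0.0124 for Stab1. In the GRCm38.p6 gene order, Stab1 overlaps its neighbour Nt5dc2, which fell (-0.69, q = 1.38e-05 per the authors' deposited table). How strand entered the read assignment is not stated, so the Stab1 value is uncertain. Olr1 (Gene ID 108078), the lectin-like receptor LOX-1 for oxidised lipoprotein, was the least precise member, at -0.39 (q = 0.993) per the authors' deposited table with an interval of 0.238 to 2.46 times control. At that standard error, an observed log2 fold change of 2.87 would have been needed for Olr1 to pass.

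In order of log2 fold change the genes ran Marco, Cd5l, Colec12, Cd36, Msr1, Scarb1, Stab1, Scarb2, Olr1 and Cd163. Intervals of neighbours in this order overlapped in 8 of 9 pairs, the exception being Cd5l and Colec12. Sorting by the same values sets close genes side by side, so such overlap is favoured by construction. Overlap of intervals does not show that genes are alike, and differences between members were not tested. Unadjusted p-values were under 0.05 for 5 of the 10 genes, and for 1426 of all 16138. The plot of change against precision sets each gene beside the change it needed to pass, which is 3.33 times its standard error.

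**Figure D2:**
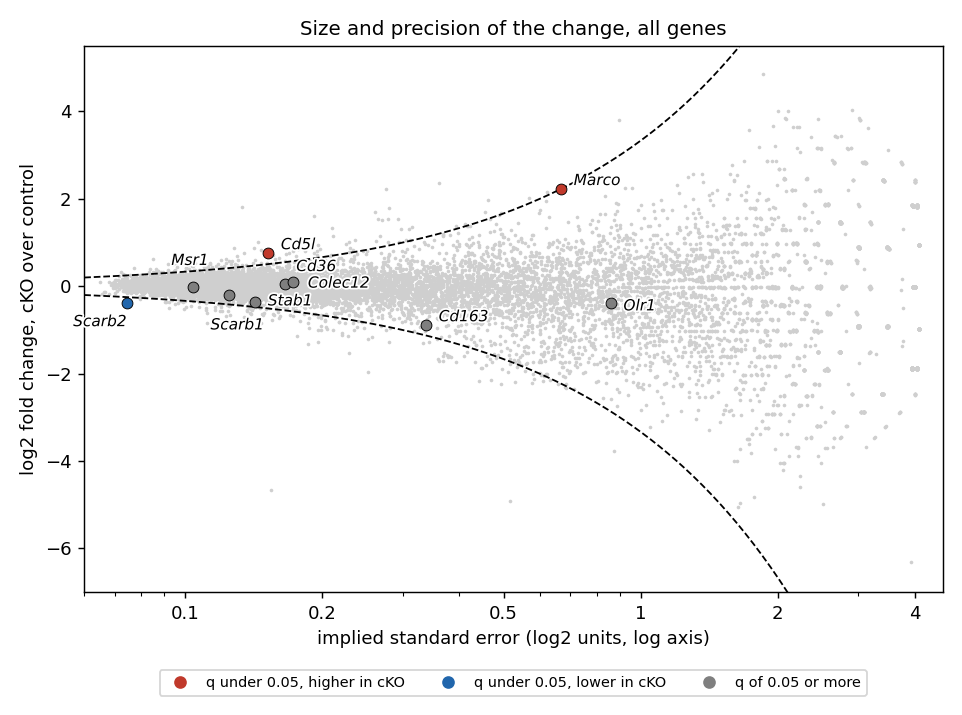
Log2 fold change of cKO over control against the implied standard error (log axis) for all 16138 genes of the authors' deposited table (light dots), with the 10 scavenger receptor genes outlined and named; the dashed lines mark the change needed to pass q under 0.05. Marco lies on the upper line, Cd5l above it and Scarb2 below the lower line, and 7 of the 10 genes lie to the left of the median standard error of 0.185.

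The other genes of the superfamily came from a list made by receptor class, not by value, with earlier results of these data known. Of 23 measured genes of classes A to L and of the SRCR domain that are not among the 10, 1 fell, none rose and 22 did not pass (median log2 fold change -0.05, and 5 with an unadjusted p under 0.05). Over all genes, 1.72% passed, and 1426 of 16138 had an unadjusted p under 0.05. Another 4 listed genes were not analysed here. The gene that fell was Loxl2, a secreted lysyl oxidase with SRCR domains that crosslinks collagen (-1.56, q = 0.00370 per the authors' deposited table, interval -2.30 to -0.83). Its relatives Loxl4 (-2.43, q = 0.196) and Loxl3 (-0.09, q = 0.993) did not pass per the authors' deposited table. Class A also holds Scara3, a receptor linked to oxidative stress, at -1.64 (q = 0.375) per the authors' deposited table. Beside the values of Loxl2, Loxl4 and Scara3, 18 of 18 stromal markers had ratios below 0, with a median of -1.64, a range of -2.48 to -0.58, 16 with an unadjusted p under 0.05 and 2 that passed, and the part of stromal cells in these values was not tested. In such bulk RNA, fewer cells of a type and less RNA per cell cannot be told apart.

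Among macrophage-expressed receptors of the list, the nearest to the threshold was Cxcl16, the class G receptor for oxidised lipoprotein that is also shed as a chemokine. It stood at 0.29 (interval 0.12 to 0.46) with q = 0.0553 per the authors' deposited table. The class E lectin receptors Clec7a, which binds beta-glucan (-0.60, q = 0.675), and Mrc1, the mannose receptor (-0.27, q = 0.720), did not pass per the authors' deposited table. Cd68, the class D macrophage protein of late endosomes, stood at 0.09 (q = 0.993), and Cd44, the class K hyaluronan receptor, at 0.21 (q = 0.685), per the authors' deposited table. Lrp1, a large endocytic receptor of class L, stood at -0.12 (q = 0.993) and Scarf1, a class F receptor for dying cells, at -0.05 (q = 0.993) per the authors' deposited table. Intervals of these 4 genes reached no further than -0.42 and 0.45. Stab2, the relative of Stab1 on sinusoidal endothelium, stood on the other side of 0, at 0.88 (q = 0.728), per the authors' deposited table, with an interval of -0.16 to 1.92. Ssc5d, a soluble SRCR protein, stood at 0.96 (q = 0.226), Lgals3bp, a secreted galectin-binding SRCR protein, at 0.03 (q = 0.993), and Scarf2 at -0.01 (q = 1.00) per the authors' deposited table.

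The remaining genes on the list did not pass and had wide intervals. Ager, the receptor for glycated proteins (-0.39), Megf10 (-0.52), the T cell proteins Cd5 (0.22) and Cd6 (0.94), the asialoglycoprotein receptor chains Asgr1 (-1.87) and Asgr2 (-0.03), Lrp2 (0.94) and Scara5 (-0.98) had implied standard errors from 0.655 to 4.08 and q of 0.993 or more per the authors' deposited table. Scara5 shared its ratio and p-value exactly with 406 other genes, and Lrp2 and Cd6 shared theirs with 390. None of the 10 receptor genes shared its values with another gene.

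**Figure D3:**
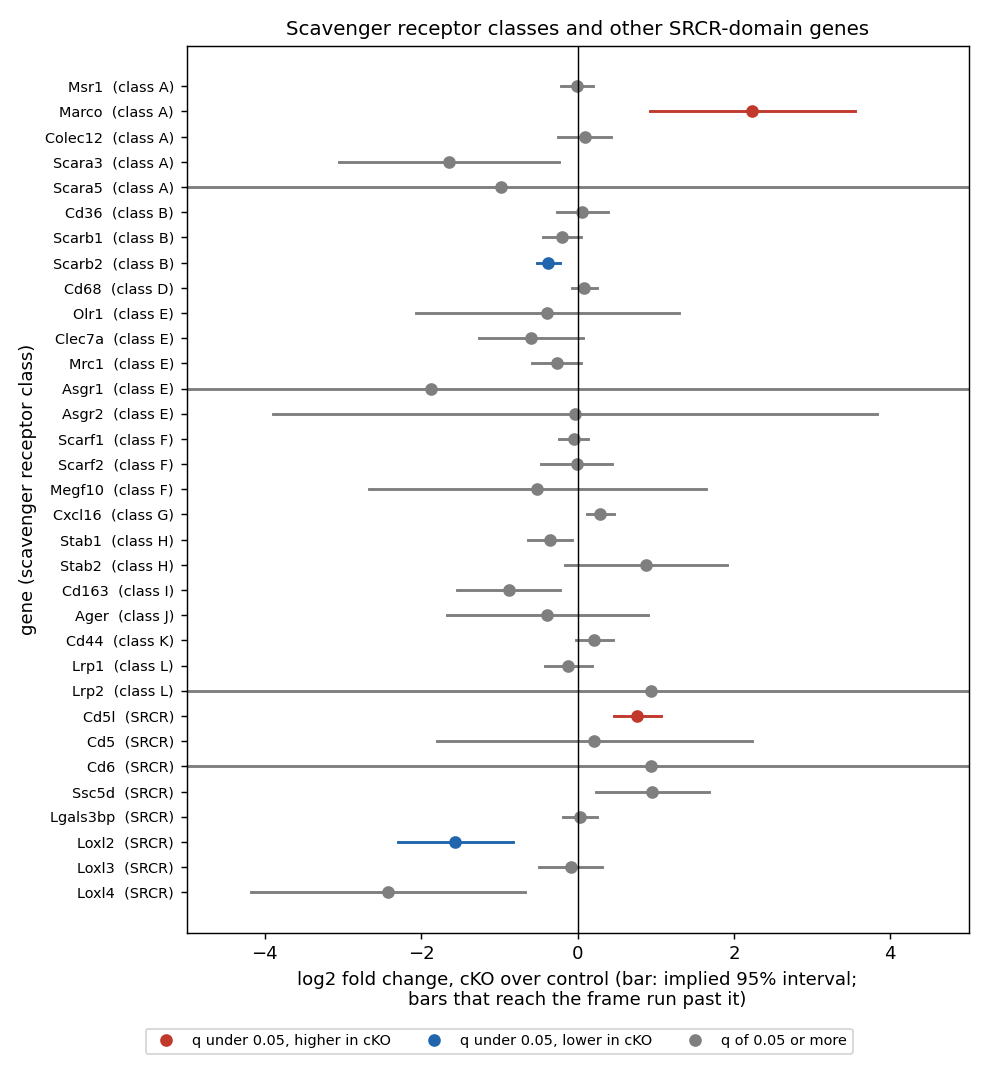
Log2 fold change of cKO over control for 33 genes of scavenger receptor classes A to L and the SRCR domain (points), from the authors' deposited table, with implied 95% intervals (bars), ordered by class. Marco and Cd5l stand to the right and Scarb2 and Loxl2 (-1.56) to the left with q under 0.05; the bars of Scara5, Asgr1, Lrp2 and Cd6 run past the frame.

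Genes that act with the receptors were listed by function, with earlier results of these data known, so their counts test nothing. Of 15 co-receptors and signalling genes, 1 fell and 14 did not pass, where 1.72% of all genes passed. The median was 0.09, with 10 above 0 and 5 below, and 5 had an unadjusted p under 0.05, against 1426 of all 16138 genes. The gene that fell was Cd9, a tetraspanin that associates with CD36 at the macrophage surface (-0.79, q = 0.00145 per the authors' deposited table). Another tetraspanin, Cd81, stood at -0.51 (q = 0.0657), and the Toll-like receptors that work with CD36 stood at -0.15 for Tlr2, 0.23 for Tlr6 and -0.11 for Tlr4, all with q of 0.835 or more per the authors' deposited table. The kinases Lyn (0.22, q = 0.579) and Fyn (0.09, q = 0.993), which signal below CD36, did not pass per the authors' deposited table. Syk (0.38, q = 0.181), Cd14 (0.38, q = 0.283) and Vav1 (0.20, q = 0.416) stood above 0 without passing per the authors' deposited table.

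Regulators known for these genes were listed in the same way. Of 15 transcription factors, 1 rose, 1 fell and 13 did not pass (median -0.05, and 3 with an unadjusted p under 0.05). Such an unadjusted p was found for 1426 of all 16138 genes. Of all genes, 1.72% passed, and nothing is read from the count against that share. Nr1h3, the oxysterol receptor LXR alpha that drives Cd5l in mouse macrophages, rose 1.83-fold (log2 0.87, q = 1.68e-08) per the authors' deposited table. Whether the rise of Nr1h3 bears on that of Cd5l was not tested. Cebpa, a myeloid factor, fell (-0.58, q = 0.0202) per the authors' deposited table. Nr1h2, encoding LXR beta, stood at -0.05 (q = 0.993), and Pparg, whose product drives Cd36, at -0.06 (q = 0.993), per the authors' deposited table. Nfe2l2, encoding NRF2, which acts on Marco and Cd36 in mouse macrophages, stood at -0.19 (q = 0.512) per the authors' deposited table. Spi1, encoding PU.1, stood at 0.11 (q = 0.894) and Tfeb, a driver of lysosomal genes, at 0.03 (q = 0.993) per the authors' deposited table.

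Lipid genes that take over what the receptors bring in made up another list. Of 18 measured entries for lipid uptake and efflux, 2 rose, 1 fell and 15 did not pass. The median was 0.04, and 5 had an unadjusted p under 0.05, against 1426 of all 16138 genes. Of all genes, 1.72% passed, and nothing is read from the count against that share. Pltp (0.60, q = 0.000155), the phospholipid transfer protein, and Lpl (0.43, q = 0.0104), lipoprotein lipase, rose, and Apoe, apolipoprotein E, fell (-0.54, q = 0.00982), per the authors' deposited table. The cholesterol exporters Abca1 (0.36, q = 0.178) and Abcg1 (0.48, q = 0.978) and the esterifying enzyme Soat1 (0.02, q = 1.00) did not pass per the authors' deposited table. The symbol Plin2 stood for a pair of Gene IDs, both counted in the list. Gene ID 11520 is typed as mRNA (0.04, implied standard error 0.111) and Gene ID 101055843 as a pseudogene (0.17, implied standard error 1.36). Reads may have been split between them.

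Lysosomal genes beside Scarb2 lay close to 0. None of 8 passed per the authors' deposited table (1 with an unadjusted p under 0.05), with log2 fold changes from -0.11 to 0.22 and a median of 0.02, against -0.38 for Scarb2. Across all genes, 1.72% passed, and 1426 of 16138 had an unadjusted p under 0.05. The lysosomal membrane proteins Lamp1 and Lamp2 both stood at 0.02 per the authors' deposited table. Implied standard errors of the 8 genes ran from 0.0818 to 0.117, against 0.0746 for Scarb2. Whether Scarb2 differs from them was not tested.

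Genes of haemoglobin and haem handling beside Cd163 gave none of 8 that passed per the authors' deposited table (1 with an unadjusted p under 0.05, median 0.01). Across all genes, 1.72% passed, and 1426 of 16138 had an unadjusted p under 0.05. Hmox1, haem oxygenase 1, stood at 0.15 (q = 0.987), and Slc40a1, the iron exporter ferroportin, at -0.77 (q = 0.598) per the authors' deposited table. Hp, haptoglobin, stood at -0.13 (q = 0.993) per the authors' deposited table.

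**Figure D4:**
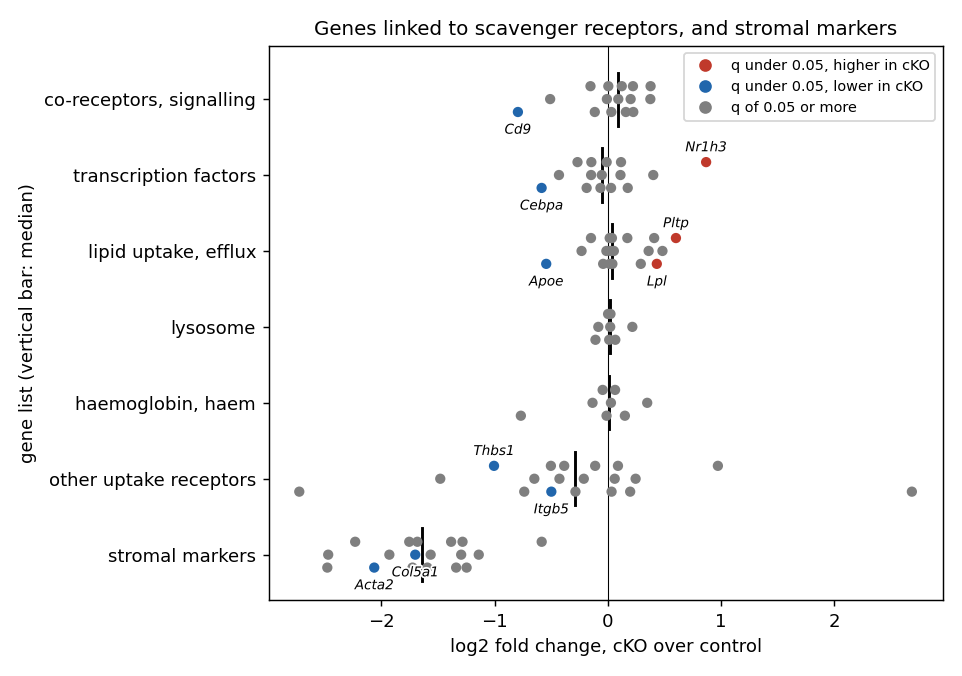
Log2 fold change of cKO over control, from the authors' deposited table, for genes of 6 function lists linked to scavenger receptors and for stromal markers (points); the vertical bars mark list medians and genes with q under 0.05 are named. Nr1h3 (0.87) stands highest among the named genes, the 8 lysosomal genes lie between -0.11 and 0.22, and the 18 stromal markers lie below 0.

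Marker lists of other cell types that express some of these receptors were read beside Marco and Cd5l. Across all genes, 1.72% passed, and 1426 of 16138 had an unadjusted p under 0.05. Of 12 markers of tissue macrophages, none passed per the authors' deposited table and none had an unadjusted p under 0.05 (median 0.10, 7 above 0 and 5 below). Siglecf, typical of alveolar macrophages, stood at -0.71 (q = 0.862), and Siglec1, typical of metallophilic and lymph node macrophages, at 0.00 (q = 1.00), per the authors' deposited table. Ear2, also of alveolar macrophages, stood at 0.20, Spic, the factor of red pulp macrophages, at 0.40, and Timd4, a phosphatidylserine receptor of resident macrophages, at 2.69, with q of 0.721 or more, per the authors' deposited table. The implied standard error of Timd4 was 2.01, with an interval of -1.25 to 6.63. Of the 12 markers, 8 had a standard error of at most 1, and 3 shared their values with other genes. Of 10 endothelial markers, Pecam1, also found on leukocytes, rose (0.81, q = 0.00156 per the authors' deposited table), with a list median of 0.21 and 9 that did not pass. No marker passed among 8 of dendritic cells (1 with an unadjusted p under 0.05, median 0.07), 10 of neutrophils (0, median -0.29) or 6 of lymphocytes (0, median -0.24). Implied standard errors of the 6 lymphocyte markers ran from 1.23 to 3.98. None of the 3731 genes with a standard error above 1 passed, so the lymphocyte list cannot show whether these cells differed. All 10 neutrophil markers had ratios below 0, and the part of any of these cell types in the values of the receptors was not tested.

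Neighbours in the genome were read from the RefSeq gene order of GRCm38.p6. Of 20 nearest measured neighbours of the 10 genes, 2 passed per the authors' deposited table, where 1.72% of all genes passed. Whether neighbours change together with the 10 genes was not tested. The 2 were Nt5dc2, which overlaps Stab1, and Steap3, the endosomal iron reductase next to Marco. Steap3 rose (0.36, q = 0.0146 per the authors' deposited table). On the other side of Marco, En1 stood at -1.87 (q = 0.993, implied standard error 4.04) per the authors' deposited table. Fcrls (-0.39, q = 0.547) and Fcrl1 (0.45, q = 0.218), on either side of Cd5l, and Nup54 (0.27, q = 0.497), beside Scarb2, did not pass per the authors' deposited table.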

How the data were processed

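RNA from 6 macrophage cultures was sequenced, 3 per genotype. The authors deposited 1 log2 fold change of Morrbid cKO over WT per gene, with a p-value and a q-value, per the file headers. The submitters' processing notes list DESeq2 1.4.5, RSEM 1.3.1, Bowtie2 and the build mm9, without role or order. For scaling and filters on low counts, methods are not given in the sources used here. Deposited q-values matched a Benjamini-Hochberg adjustment of all 16138 p-values within a relative difference of 0.00591. The deposited table also numbers the transcripts of each gene, with no other score.

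Genes were called at q under 0.05. Standard errors were the absolute log2 fold change over the normal quantile of the two-sided p-value. Tools were matplotlib 3.10.9, SciPy 1.17.1, pandas 2.3.3, NumPy 2.4.6 and Python 3.11.15. The Benjamini-Hochberg and Holm adjustments and the standard error formula were tested on simulated data, and the other steps were not. The simulated p-values came from the same normal formula, so recovery of the standard error was assured. Whether the deposited p-values follow that formula was not tested. The planned edgeR test needs counts and was not run. Some listed genes are not reported here. Members and lists were chosen with earlier results of these data known, and the motifs after the values were seen. Named were the 10 members, all measured family genes, called genes and examples of each linked list, nearest neighbours and the called genes closest to Marco. Alternatives were q under 0.01, a log2 fold change of 1 or more in either direction, Holm adjustment, genes with a standard error of at most 1, mRNA genes alone, and genes with shared values left out.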

Additional observations from a re-analysis of the deposited data

How the results depend on the processing

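No paired analysis was possible because only the ratio of the genotypes is given for each gene, with no library values. Hence other scalings, filters on low counts and fits without single replicates were not run. Of the 10 receptor genes, 3 passed, and this fell to 1 (Marco) at a log2 fold change of 1 or more in either direction, a stricter rule by construction. At q under 0.01 and by Holm adjustment 2 passed, Cd5l and Scarb2, and Marco did not, with a Holm adjusted p of 1.00. The adjusted p of Marco ran from 0.0373 to 1.00 over the alternatives, and was 0.0373 among genes with a standard error of at most 1, where fewer genes were adjusted. The family list gave 4 genes, and 2 at the minimum fold change (Marco and Loxl2) and 2 by Holm (Cd5l and Scarb2). Cxcl16 passed among genes with a standard error of at most 1 (0.0425) and with shared values left out (0.0484), the latter chosen after seeing the data. Both settings adjusted fewer genes, so these passes add no evidence for Cxcl16. The standard error limit removed 3731 genes, none of which had passed. For genes that had passed, Marco among them, it could therefore only lower the adjusted p. Over all genes, 278 passed, against 165 at q under 0.01, 94 at the minimum fold change and 67 by Holm, all stricter by construction, and against 321 among genes with a standard error of at most 1, 306 with shared values left out and 273 among mRNA genes alone. No direction can change under these alternatives, since they keep the deposited ratio.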

Other observations

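Other genes of uptake were looked at as a separate list. It held receptors for dying cells and opsonised particles, lectin receptors, and soluble ligands and bridging proteins. Of these 19 genes, 2 fell, none rose and 17 did not pass (median log2 fold change -0.29, and 7 with an unadjusted p under 0.05). Such an unadjusted p was found for 1426 of all 16138 genes. Of all genes, 1.72% passed, and nothing is read from the count against that share. Thbs1, thrombospondin 1, a ligand of CD36 that bridges it to dying cells, fell to 0.498 times control (-1.01, q = 0.000144), and Itgb5, the integrin chain that works with alpha v in the same uptake, fell (-0.50, q = 0.0235), per the authors' deposited table. Its partner Itgav (-0.43, q = 0.212) and the bridging protein Mfge8 (-0.29, q = 0.238) stood below 0 without passing per the authors' deposited table. Thbs1 is also made by stromal cells, whose 18 markers had a median of -1.64, and their part in this value was not tested. The engulfment kinases Mertk (0.03, q = 0.994) and Axl (-0.65, q = 0.712) and the lectin Clec4e (0.97, q = 0.2996) did not pass per the authors' deposited table.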
